A study of Homo sapiens with 8 samples.

Results

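AHNAK, PLEC and TRIOBP encode very large proteins that tie the cytoskeleton to membranes, to other filaments or to itself. They were followed here through the m6A features that carry their names in the authors' deposited table of one comparison, decitabine against DMSO in HL-60 cells. Every row named for one of the 3 genes was taken, which gave 24 features of the 4626 in the table: 13 for AHNAK, 7 for PLEC and 4 for TRIOBP. The genes were chosen by the measured ratios themselves, because they hold many features that are mostly negative. Their signs and sizes are therefore given as a description, without a test.

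HL-60 is an established human promyelocytic leukaemia line, labelled as wild type. Cells received decitabine, a deoxycytidine analogue that is built into DNA and traps DNA methyltransferases, to 100 nM on 3 occasions, at the outset and after 24 hours and 48 hours, or its vehicle DMSO, and RNA was collected after 72 hours. The 8 libraries form 4 groups of 2, since each culture gave both an input library and one from the m6A immunoprecipitate, and the labels call the cultures duplicates without saying more of their origin. For the immunoprecipitates, 2 µg of fragmented total RNA met 5 µg of an anti-m6A antibody, and the libraries were read as single 50-nt reads. The authors' deposited table holds 1 natural log ratio and 1 p-value per feature and nothing per library, so no ratio here has a replicate spread and the depth is unknown. It lists features with an absolute log ratio of 0.50 or more and a p-value of at most 0.00455. A window of these genes that is missing from it was not analysed here. The direction of the ratio is not spelled out. Because the deposit takes its name from decitabine, a negative ratio likely means less m6A signal with decitabine, and folds below are the larger arm over the smaller. How the input entered the ratio is not given either, and fewer modified molecules and less of the mRNA itself cannot be told apart. Each immunoprecipitate took the same 2 µg of RNA in both arms, whatever the number of cells. Of 10 markers of promyelocytic cells, 2 (SPI1 and CEBPA) had listed features, and of 11 markers of lymphoid, erythroid, fibroblast and epithelial cells 0 did. A list of changed features gives no expression level, so the labelled cell type could not be checked on it.

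N6-methyladenosine is placed on mRNA by the METTL3-METTL14 writer complex, mainly at a short consensus motif, and is dense in unusually long exons and around stop codons. Readers bound to it influence decay, splicing and translation of the mRNA. Genes with giant exons, such as the 3 described here, therefore offer many places where the mark can be measured. AHNAK is a scaffold of the cell cortex that binds S100A10 and annexin A2 and consists largely of repeated units encoded in a single giant exon. PLEC encodes plectin, a plakin that links intermediate filaments to actin, to hemidesmosomes and to the nuclear envelope. TRIOBP encodes proteins that bind and bundle F-actin. Its long forms build the rootlets of hair cell stereocilia, and a short form, TRIOBP-1 or Tara, comes from a downstream promoter.

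Together, 20 of the 24 features were negative and 4 positive, and all 4 positive ones belonged to AHNAK. Negative features make up 43.7% of the whole table, and since the genes were picked for their negative features, nothing is read from that difference. The median log ratio was -1.21 for AHNAK, -1.49 for PLEC and -1.37 for TRIOBP, against 0.78 over all listed features. The 11 features of PLEC and TRIOBP ran from 2.34-fold to 6.08-fold, a range that held 43.8% of all negative features of the table (885 of 2022). AHNAK was wider, from 2.18-fold to 218-fold.

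**Figure D1:**
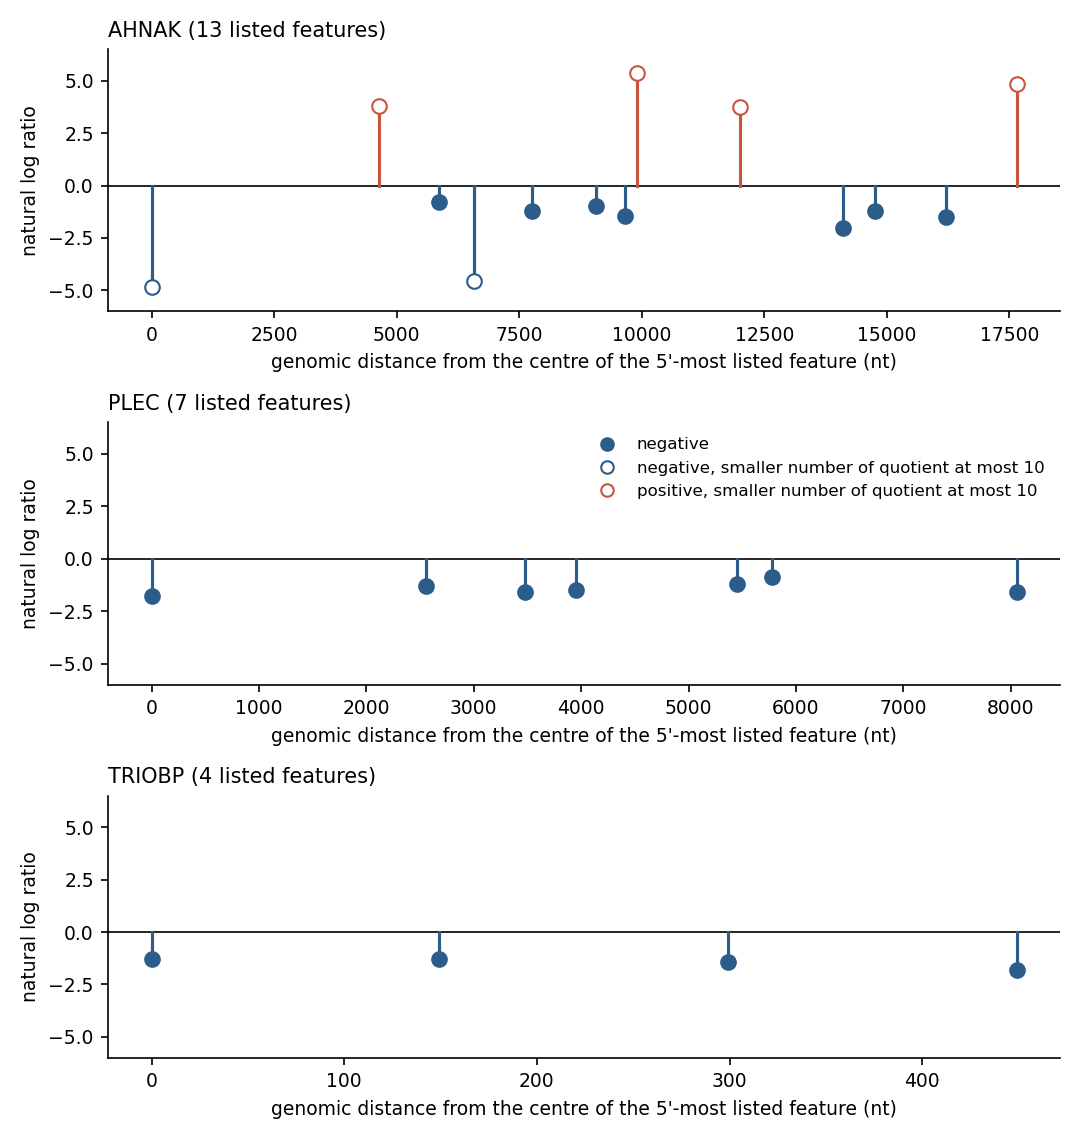
Natural log ratio (vertical axis) of each listed feature against its genomic distance in nt from the 5'-most listed feature of the same gene (horizontal axis, a different scale in each panel), for AHNAK, PLEC and TRIOBP. Blue is negative and red is positive, open circles have a quotient whose smaller number is at most 10, and each point is 1 value of the authors' deposited table with no replicate error; the 4 red circles are all in AHNAK and all open.

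The ratios can also be written as quotients and sorted by the smaller number. The exponential of the deposited log ratio equalled a quotient of 2 whole numbers, the smaller at most 1000, for 4476 of the 4626 features (96.8%, relative tolerance 1e-08). Read as a base 2 logarithm, 281 (6.07%) did. What the whole numbers stand for is not stated, and in lowest terms they can only be too small. All 24 member features had such a quotient. In 18 of them the smaller number was between 20 and 695, and these 18 were all negative, from 2.18-fold to 7.55-fold. In the other 6, all in AHNAK, it was between 1 and 6, and these ran from 42.8-fold to 218-fold, 4 positive and 2 negative. Over the whole table, a smaller number of at most 10 occurred in 98.0% of the 1561 features that reached 20-fold and in 3.63% of the 2700 that stayed under 8-fold. Without features of that kind 55.1% of the table was negative (1592 of 2889), and its median log ratio was -0.62. The threshold of 10 was set after the values were seen. Since the fold is the larger number over the smaller, a low smaller number and a high fold go together partly by construction.

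**Figure D2:**
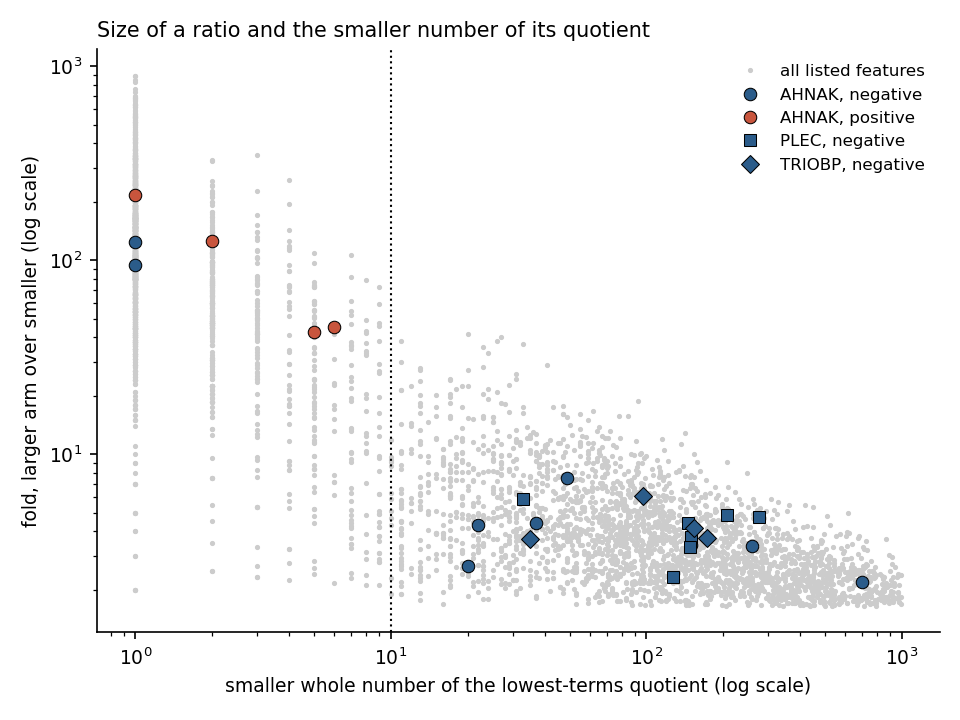
Fold of the larger over the smaller arm against the smaller whole number of its lowest-terms quotient, both on log scales, for every listed feature with a quotient (grey, 1 value over 1000-fold left off) and for AHNAK (circles), PLEC (squares) and TRIOBP (diamonds), negative in blue and positive in red. The dotted line marks 10; left of it lie 6 AHNAK features from 42.8-fold to 218-fold, and right of it the other 18 member features, all blue and at most 7.55-fold.

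PLEC carried 7 features and all of them were negative. They lay on the minus strand of chromosome 8 (hg38), in a stretch of 8104 nt near the 3' end of the gene, between 1543 and 9597 nt from the end of its RefSeq span (ENSG00000178209.15, 143915153 to 143976745). That stretch is 13.2% of the span. Exons and UTRs were not annotated here.

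From the 5' side, the first PLEC feature of the authors' deposited table (143924750 to 143924799) was negative at 5.88-fold, the largest of the gene (p = 0.00020). The next that the authors' deposited table lists, 2507 nt further on, was negative at 3.73-fold (143922193 to 143922242, p = 4.5e-05). The third was 100 nt wide (143921244 to 143921343) and was negative at 4.77-fold; its p-value of 6.9e-07 was the smallest of the 24 member features and ranked 307 among the 4626 of the authors' deposited table. These values put the upstream side of the stretch between 3.73-fold and 5.88-fold. Towards the 3' end the authors' deposited table gave negative ratios of 4.42-fold (143920794 to 143920843, p = 0.00089), 3.30-fold (143919295 to 143919344, p = 0.0022) and 2.34-fold (143918945 to 143919044, p = 5.8e-06). The smallest ratio of the gene, 2.34-fold, was thus also one of its smallest p-values, and that feature too was 100 nt wide. For the last PLEC feature (143916696 to 143916745) the authors' deposited table returned to a negative 4.84-fold (p = 0.00013). No trend from the 5' to the 3' side can be read from 7 values without errors. No PLEC quotient had a smaller number under 33, and no listed feature of another gene name overlapped one of the 7.

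AHNAK had more features than any other name in the table, 13, against 8 for the next. They were spread over 17698 nt of the minus strand of chromosome 11 (62517399 to 62535096, ENSG00000124942.14). That is 10730 to 28378 nt downstream of the start given for AHNAK among the RefSeq promoters, at 62545826. The RefSeq span of the gene begins further upstream, at 62546806. The RefSeq span runs on for 83855 nt past the last of the 13 features, and no listed AHNAK feature lay in that part. That span is of the gene as a whole. Without exons, it does not show how near the features lie to the 3' end of an AHNAK mRNA. Of the 13, 9 were negative and 4 positive, and both signs occurred along the stretch.

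The 7 AHNAK features whose quotients had a smaller number above 10 were all negative, between 2.18-fold and 7.55-fold. In 5' to 3' order the authors' deposited table listed negative ratios of 2.18-fold (62529178 to 62529227, p = 0.00018), 3.40-fold (62527281 to 62527330, p = 0.00020) and 2.65-fold (62525984 to 62526033, p = 0.0040). They continued in the authors' deposited table with 4.32-fold (62525385 to 62525434, p = 0.00086) and 7.55-fold (62520942 to 62520991, p = 0.0034). The authors' deposited table ended this run with 3.36-fold (62520294 to 62520343, p = 0.00082) and 4.41-fold (62518846 to 62518895, p = 0.0045). Their median, 3.40-fold, lay near the 3.23-fold of all negative features without low quotients, and 7.55-fold was the highest of any member outside the low quotients.

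The remaining 6 AHNAK features were far larger and mixed in sign. The authors' deposited table gave positive ratios of 218-fold (62525135 to 62525184, p = 1.3e-06), 125.5-fold (62517399 to 62517448, p = 2.3e-05), 45.2-fold (62530376 to 62530475, 100 nt wide, p = 2.0e-05) and 42.8-fold (62523039 to 62523088, p = 0.00036). As quotients these are 218 over 1, 251 over 2, 271 over 6 and 214 over 5. The 2 negative ones in the authors' deposited table were the 5'-most feature, at 124-fold (62535047 to 62535096, p = 0.0011), and one at 95-fold (62528479 to 62528528, p = 0.00048), both over 1. The 3 smallest p-values of AHNAK all belonged to positive features. Opposite signs came close together: the 218-fold positive feature ended 200 nt from the negative 4.32-fold one upstream of it. Among the AHNAK features with a p-value of at most 0.001, 5 were negative and 4 positive, so the excess of negative features shrank there, and the median log ratio was -0.78. AHNAK's repeats and the plakin repeats of PLEC resemble each other within each gene, and no source used here says how reads with several possible places were treated.

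TRIOBP held 4 features, all negative and packed into 499 nt of the plus strand of chromosome 22 (37723895 to 37724393, ENSG00000100106.22). They were evenly spaced, with gaps of 99, 100 and 100 nt between neighbours, and merged at a distance of 200 nt they count as 1. The authors' deposited table gave negative ratios of 3.70-fold (37723895 to 37723944, p = 0.0024), 3.66-fold (37724044 to 37724093, p = 4.1e-05), 4.18-fold (37724194 to 37724243, p = 0.00030) and 6.08-fold (37724344 to 37724393, p = 0.00099) from the 5' to the 3' side. The first 3 were nearly equal and the last was the highest. The smaller numbers of their quotients were 173, 35, 153 and 97.

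The TRIOBP features lie upstream of where some TRIOBP transcripts begin. RefSeq (GRCh38.p14) places 2 starts of this gene in its promoter table, 49186 nt apart. The first feature lay 26847 nt downstream of the upstream start at 37697048, and the last lay 21841 nt upstream of the downstream start at 37746234. A transcript that begins at the downstream start does not contain these windows. Whether transcripts from the upstream start hold them in an exon was not checked. Both promoters, from 250 bases before to 50 bases after the start, are shown because they mark off the 2 sets of transcripts; capitals mark CpG dinucleotides, the sites that DNA methyltransferases act on. The upstream one held 15 CpGs and the downstream one 39, and 48.9% and 8.71% of the 35116 promoters of that length held as many or more. No methylation was measured at either. AHNAK had 1 promoter entry, with 25 CpGs, a number that 32.0% of the promoters reached, and PLEC had none.
TRIOBP upstream start, chr22:37696798-37697097, plus strand: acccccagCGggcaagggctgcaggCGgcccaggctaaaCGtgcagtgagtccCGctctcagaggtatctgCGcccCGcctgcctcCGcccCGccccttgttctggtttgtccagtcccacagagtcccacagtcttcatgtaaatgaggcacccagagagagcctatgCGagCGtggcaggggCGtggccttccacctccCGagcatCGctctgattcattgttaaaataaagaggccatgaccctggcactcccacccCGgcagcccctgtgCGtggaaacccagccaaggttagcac
TRIOBP downstream start, chr22:37745984-37746283, plus strand: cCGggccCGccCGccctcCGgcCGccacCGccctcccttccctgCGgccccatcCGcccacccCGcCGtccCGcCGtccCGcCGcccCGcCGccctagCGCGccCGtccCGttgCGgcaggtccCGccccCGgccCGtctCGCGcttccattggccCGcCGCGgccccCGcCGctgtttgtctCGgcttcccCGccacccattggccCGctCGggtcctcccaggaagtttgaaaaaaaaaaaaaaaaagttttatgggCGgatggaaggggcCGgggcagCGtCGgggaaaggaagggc

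The same stretch of TRIOBP was also listed under another name. Z83844.1, a clone-named gene (ENSG00000100101.15), had 3 features on the same strand, and each overlapped a TRIOBP feature. By the authors' deposited table, the first Z83844.1 feature (37724027 to 37724076) was negative at 2.72-fold (p = 0.00029) and shared 33 nt with the negative 3.66-fold TRIOBP feature. The third (37724324 to 37724373) was negative in the authors' deposited table, at 4.09-fold (p = 0.0029), and shared 30 nt with the negative 6.08-fold one. Between them, a Z83844.1 feature of 99 nt (37724176 to 37724274) had a positive sign in the authors' deposited table (5.27-fold, p = 1.7e-05), although it covered the whole 50 nt of the negative 4.18-fold TRIOBP feature. Its quotient was 58 over 11. Over the table, 77 pairs of single-block features with different gene names overlapped by at least 25 nt on one strand, and 2 of them (2.6%) had opposite signs, this pair being 1. Reads in the shared bases can belong to either name, and no source used here gives the rule that assigned them. TRIOBP keeps 1 feature, the first, when those overlapped by Z83844.1 are left out. The pairs were counted after the overlap was seen.

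**Figure D3:**
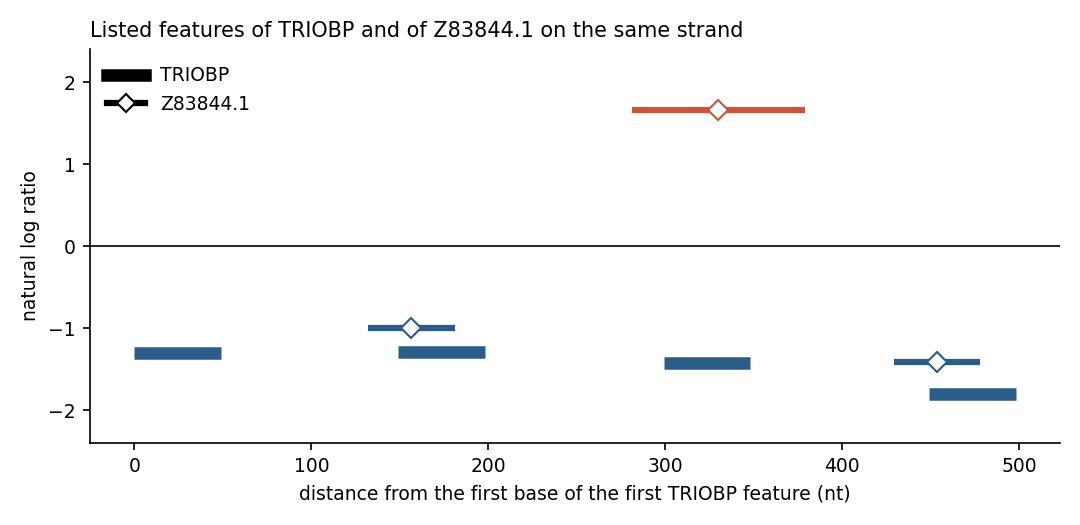
Natural log ratio (vertical axis) of the 4 TRIOBP features (thick bars) and the 3 Z83844.1 features (thin bars with a diamond), drawn over the bases they cover as distance in nt from the first TRIOBP feature; blue is negative and red is positive. The red bar at 1.66 spans the whole of the third TRIOBP bar at -1.43.

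Among the 11 genes with 7 or more listed features, PLEC was the 1 with no positive feature. Of 126 genes with 4 or more, 9 had only negative features, PLEC and TRIOBP among them, and 14 only positive ones. AHNAK, with 69.2% negative, stood in the middle of that group: 6 of the other 10 had a higher share, among them CENPF and RREB1 (87.5% each) and GNA12, MKI67 and ZNF292 (71.4% each), and 4 a lower one, from FAT1 (50%) to KMT2D (28.6%). The order is a description, since the genes entered by these same counts.

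**Figure D4:**
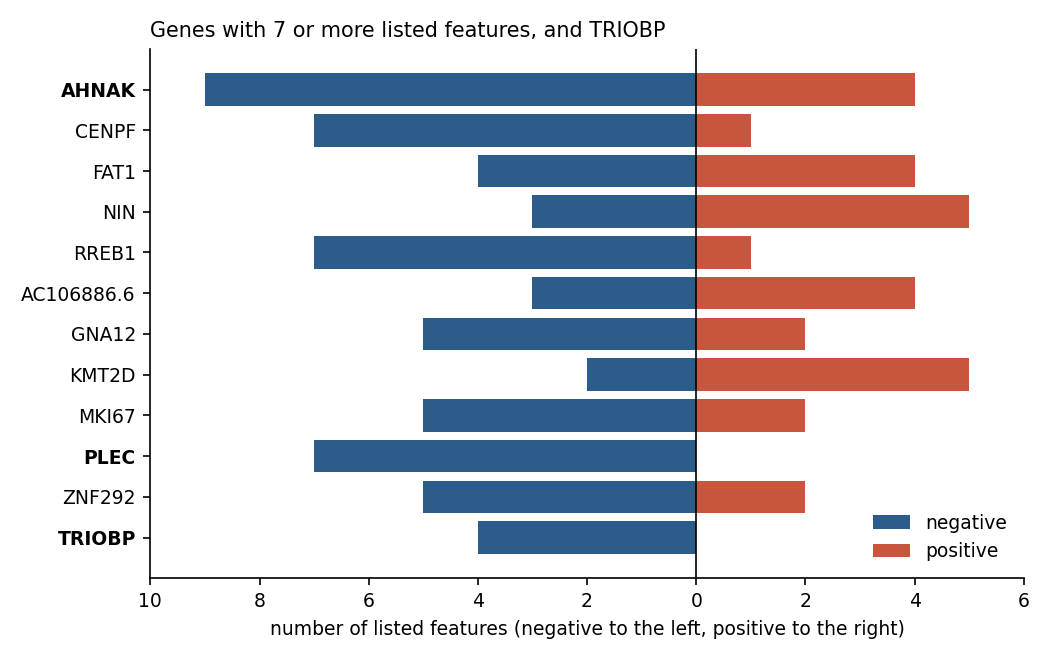
Number of listed features per gene (negative to the left in blue, positive to the right in red) for the 11 genes with 7 or more, and for TRIOBP. PLEC has 7 negative and 0 positive features, AHNAK 9 and 4, TRIOBP 4 and 0.

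Other genes of the cytoskeleton showed both signs. Of 86 symbols in 7 lists of plakins, spectrins, nuclear linkers, intermediate filaments, actin binders, myosins and partners of the members, 13 genes were listed, with 8 negative and 10 positive features. The negative share was 44.4%, beside 43.7% of all listed features, and 6 of 9 were negative without low quotients, where the whole table had 55.1%. Nothing particular to these genes is read from so few features. All listed features together carry 3114 gene names, and how many genes were measured is not given. Nothing is therefore read from how many genes of a list were listed or absent, here or below. Among the plakins, relatives of plectin, 1 of 6 was listed: MACF1, which links actin to microtubules, for which the authors' deposited table has positive ratios of 48.5-fold and 105-fold, both low quotients. Of 31 actin binders 4 were listed, with 3 negative features and 1 positive. From the authors' deposited table, talin (TLN1), which couples integrins to actin, was negative at 3.57-fold, supervillin (SVIL) at 3.84-fold and filamin A (FLNA) at 2.01-fold, while alpha-actinin 1 (ACTN1) was positive at 123-fold, a low quotient. Of 10 myosins 4 were listed, with 3 negative and 5 positive features. MYO1G, a myosin of blood cells, had 2 of the negative ones in the authors' deposited table, at 498-fold (498 over 1, p = 3.5e-07), the largest ratio in these 7 lists, and at 3.84-fold. MYO9B, an unconventional myosin, had 4 features in the authors' deposited table, positive at 2.22-fold, 93-fold and 156-fold and negative at 22.55-fold. The 93-fold and 156-fold ones were low quotients. Also from the authors' deposited table, the spectrin SPTBN1 was negative at 6.71-fold, the nuclear envelope protein LBR positive at 2.30-fold and the nesprin SYNE3 negative at 1.82-fold. The SPTBN1 and LBR features were low quotients. Of 7 intermediate filament genes, which include the plectin partner VIM, 0 were listed. Of 14 binding partners of the members, among them S100A10, ANXA2 and ITGB4, 1 was listed: ITGA6, the integrin alpha chain of hemidesmosomes, which the authors' deposited table has as positive at 226.5-fold (453 over 2, p = 6.2e-11).

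Features of other very large mRNAs were more often negative than positive, but unevenly from gene to gene. Of 34 further genes with very large mRNAs, 18 were listed, with 35 negative and 21 positive features and a median log ratio of -0.71, against 0.78 over all listed features. Their negative share was 62.5%, beside 43.7% in the whole table; without low quotients it was 70.2% (33 of 47), beside 55.1%. The median of the whole table without low quotients was -0.62, and that of the list was not computed. The list was drawn up with earlier results of these data known, and the difference was not tested. Mostly negative ones included CENPF, a kinetochore protein, with 7 negative and 1 positive, and BAHCC1 and SON, a chromatin protein and a splicing cofactor, with 5 negative and 0 positive each. BIRC6 had 2 negative and 0 positive. GOLGB1, MDN1, PCNT, PRKDC, SRRM2, VPS13B and VPS13D had 1 negative and 0 positive each, and AKAP9 and AKAP13 had 1 of each sign. Because of how the list was drawn up, its excess of negative features is not read as a trait of very large mRNAs. KMT2D and KMT2C, histone methyltransferases, had 2 negative and 5 positive, and 0 negative and 4 positive. Their relative KMT2A had 1 negative and 3 positive, the nuclear regulator ANKRD11 2 negative and 4 positive, and TNRC18 2 of each. By the share of negative features among genes with at least 4, the genes most like PLEC and TRIOBP included ARHGAP35, a GTPase activating protein, BAHCC1 and SON, with 5 of 5 negative each, and EMILIN2, an extracellular glycoprotein, with 4 of 4. The folds of these 4 genes in the authors' deposited table ran from 1.75-fold to 10.4-fold, and no feature of theirs was a low quotient.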

How the data were processed

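Methylated RNA immunoprecipitation sequencing was compared between decitabine-treated and DMSO-treated HL-60 cells. Per the submitters' processing notes, STAR 2.7.3a was used with the build hg38. The authors' deposited table gives each feature a log ratio, read here as a natural log, and a p-value, not marked as adjusted. No source used here names the tool that scored features or its corrections for input and library size. Positions were taken as 1-based and inclusive. Folds are the exponential of the absolute ratio. Lowest-terms quotients were sought with a smaller number of up to 1000 (relative tolerance 1e-08), a search tested on simulated data, and are called low at 10 or less. Gene spans and promoters came from RefSeq (GRCh38.p14). The 10 chromosome Y rows, copies of chromosome X, were left out of counts per gene and of overlaps. Planned motif searches and exon annotation were not run, since no genome sequence or exon table was used. Named genes were all members, listed partners, related genes with 3 or more features and the 5 genes most like the members, of which 1 is not reported here; other related genes were named after their values were seen. Members and lists were chosen with earlier results of these data known. No p-value was computed here. Python 3.11.15, pandas 2.3.3, numpy 2.4.6 and matplotlib 3.10.9 were used.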

Additional observations from a re-analysis of the deposited data

How the results depend on the processing

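Of 46 values recomputed under alternative settings, 39 stayed within 1.5 times of the reported count or within 10% of the reported median, and 7 moved. That tally does not measure robustness, because many settings left the features of a gene as they were. Every member feature lay inside its RefSeq span, and PLEC had no low quotient, overlapped feature or neighbours to merge. Reading the ratios as base 2 logarithms, in turn, rescales every median by the same factor. With a p-value of at most 0.001, AHNAK kept 5 negative features and a median log ratio of -0.78. Merging features within 200 nt left TRIOBP 1 negative feature, as did leaving out those overlapped by another listed gene. Read as base 2 logarithms, the medians became -0.84 for AHNAK, -1.03 for PLEC and -0.95 for TRIOBP on the natural log scale. Low quotients and overlapped features were removed as settings chosen after seeing the data. The search for GGAC in widened windows was not run. No paired analysis was possible because the deposited table holds no value per library, and for the same reason no replicate could be left out and the depth behind each ratio is unknown.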

Other observations

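The windows of TRIOBP and Z83844.1 were not laid on a common grid. The 3 Z83844.1 features began 17, 18 and 20 nt before the TRIOBP features they overlap, so the 2 names divide the same stretch of chromosome 22 at different bases. The offset is given as a position only, and its part in the opposite signs of the middle pair was not tested.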
